A study of Mus musculus with 13 samples.

Results

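Ribosome footprints on 10 genes of the NRF2 antioxidant pathway were followed in mouse fibroblasts under endoplasmic reticulum (ER) stress. The genes were taken by symbol from the 22406 symbols of the deposited tables, and all 10 were found in every library. They encode the transcription factors NRF2 (Nfe2l2) and NRF1 (Nfe2l1), the NRF2 inhibitor KEAP1 (Keap1) and 7 enzymes (Hmox1, Nqo1, Gclc, Gclm, Gsr, Srxn1 and Txnrd1). ER stress was evoked with thapsigargin (Tg), an inhibitor of the SERCA pump that empties the calcium store of the ER. PERK is the ER stress kinase that phosphorylates eIF2α, which lowers general translation and raises that of ATF4. Of the 13 libraries, 5 were from mouse embryonic fibroblasts (MEFs) with PERK (PERK WT) and 5 from MEFs in which PERK was knocked out (PERK -/-). In each genotype they were an untreated control and cells given 1 µM Tg for 1, 2, 5 or 8 h. The other 3 libraries were from the mouse fibroblast line NIH3T3, as an untreated control and after 2 or 7 h of 200 nM Tg, so neither the dose nor the late time matched that of the MEFs. The MEF medium, unlike that of the NIH3T3 cells, was supplemented with the reducing agent beta-mercaptoethanol in every condition, controls included. Mouse strain, embryonic age and the number of MEF lines per genotype are not given in the sources used here.

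With 1 library per condition there is no spread between replicates to judge a difference by, and no difference was tested. Levels are given as TPM values of RSEM, a share of the library per length of coding sequence, so a change is a gain or loss relative to other genes and not an amount of protein made. Values under 4 TPM were raised to 4, and genes with a mean of at least 2 TPM over the libraries of a table were taken as expressed. The reference of every Tg library was the untreated library of the same genotype or line. All 10 genes passed this filter, among 10432 expressed genes in MEFs and 10117 in NIH3T3 cells. A gene is said here to have risen or fallen where its TPM changed at least 2-fold. Beside the TPM, the log2 change of expected counts per library total is given with its exact 95% interval, which covers counting error only.

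NRF2 is made continuously and, in unstressed cells, is bound by KEAP1, which hands it to a CUL3 ubiquitin ligase for degradation. Oxidants and electrophiles modify cysteines of KEAP1, and NRF2 then escapes, pairs with small MAF proteins and binds antioxidant response elements (AREs) beside its target genes. Its activity is thus set largely by the stability of the protein, which footprints on Nfe2l2 do not measure. NRF2 is also a known substrate of PERK. NRF1 is a related factor that is inserted in the ER membrane and is known for the recovery of proteasome genes. Of the enzymes, heme oxygenase 1 (Hmox1) breaks down heme, and NQO1 (Nqo1) reduces quinones. Gclc and Gclm encode the catalytic and the modifier subunit of glutamate-cysteine ligase, the first step of glutathione synthesis. Glutathione reductase (Gsr) and thioredoxin reductase 1 (Txnrd1) recharge the 2 main thiol systems of the cell, and sulfiredoxin (Srxn1) repairs overoxidized peroxiredoxins.

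The ARE is the sequence through which NRF2 is known to act on its target genes, so the promoters were searched for its core, TGACNNNGC, on both strands. RefSeq windows of GRCm38.p6, the same assembly as mm10, from 250 bases before to 50 after a start site, were at hand for 7 of the 10 genes (13 windows, with none for Hmox1, Gclc and Gsr). The core was in 1 window each of 4 genes, against 12.4% of all 32851 windows and 14.0% of the 27025 genes with one. A 29-base stretch around each match is shown in the direction of the gene, with the matched bases in capitals.
Nfe2l2: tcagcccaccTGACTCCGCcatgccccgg
Srxn1: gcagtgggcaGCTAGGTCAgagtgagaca
Gclm: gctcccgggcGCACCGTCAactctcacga
Txnrd1: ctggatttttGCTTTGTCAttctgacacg
The stretch of Nfe2l2, a gene on the minus strand, was at chr2:75704885-75704913 and held the core on the gene's own strand, from 240 bases before the start on. In Srxn1 (chr2:152105542-152105570), Gclm (chr3:122245413-122245441) and Txnrd1 (chr10:82859104-82859132), which lie on the plus strand, the core was on the other strand. The match began 134 bases before the start in Gclm, but at base 29 of the transcribed part in Srxn1. In Txnrd1 it began 92 bases before a start site that lies within the gene (chr10:82833951-82897724) and not at its outer end. Of these 4 genes, Srxn1 rose at least 2-fold in MEFs of both genotypes and Nfe2l2 in NIH3T3 cells, while Gclm and Txnrd1 did so in no library. The C/EBP-ATF response element that ATF4 is known to use (searched as TGATGNAA on both strands) was in none of the 13 windows, against 3.97% of all windows. A match is a matter of letters only, and elements outside these windows were not searched.

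The total expected counts ranged from 2525029 (PERK WT, 2 h) to 14799515 (PERK -/-, 2 h). Eif2ak3, which encodes PERK, was read in the PERK -/- libraries too, with 74 counts in the control against 254 in the WT control. Its share of all counts was lower in PERK -/- than in WT at each of the 5 times, but its TPM was higher in the control (11.2 against 6.03), at 5 h (14.87 against 13.98) and at 8 h (17.2 against 15.7). At gene level it therefore does not show the deletion. Footprints on Atf4, the factor translated when PERK is active, went from 34.5 to 576 TPM in PERK WT MEFs at 8 h, from 41.4 to 58.2 in PERK -/- MEFs and from 178 to 527 in NIH3T3 cells at 7 h. The fibroblast markers were present, since at least 9 of 12 were at 4 TPM or more in every library. Of 5 endothelial markers at most 1 was, of 5 epithelial markers at most 2 and of 6 blood cell markers at most 2. Between libraries, fewer cells of a kind, less RNA per cell and less translation of that RNA cannot be told apart by footprints.

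In untreated MEFs, the 10 genes covered a range from 11.7 TPM (Nqo1) to 167 TPM (Txnrd1) in PERK WT and from 16.3 (Srxn1) to 187 (Txnrd1) in PERK -/- cells. Keap1 was the only one of the 10 that differed at least 2-fold between the untreated genotypes, with 24.3 TPM in PERK -/- against 11.8 in WT. Among all expressed genes 6.04% were at least 2-fold higher in the untreated PERK -/- library and 1.97% at least 2-fold lower. The log2 ratio of Keap1 counts, PERK -/- over WT, was 1.04 (0.80 to 1.28). Gsr was 1.81-fold higher in the PERK -/- control (91.4 against 50.5 TPM) and Nqo1 1.73-fold higher (20.2 against 11.7 TPM), both with intervals above 0. Nfe2l2 was 1.32-fold higher (49.4 against 37.5 TPM). For Gclc, Gclm and Srxn1 the intervals held 0. The smallest counts among the 10 were those of Srxn1, with 58 in the WT and 45 in the PERK -/- control. In the NIH3T3 control, in a table made apart from that of the MEFs, the levels stood at 48.6 TPM for Srxn1, 40.6 for Nqo1 and 26.7 for Nfe2l2.

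**Figure D1:**
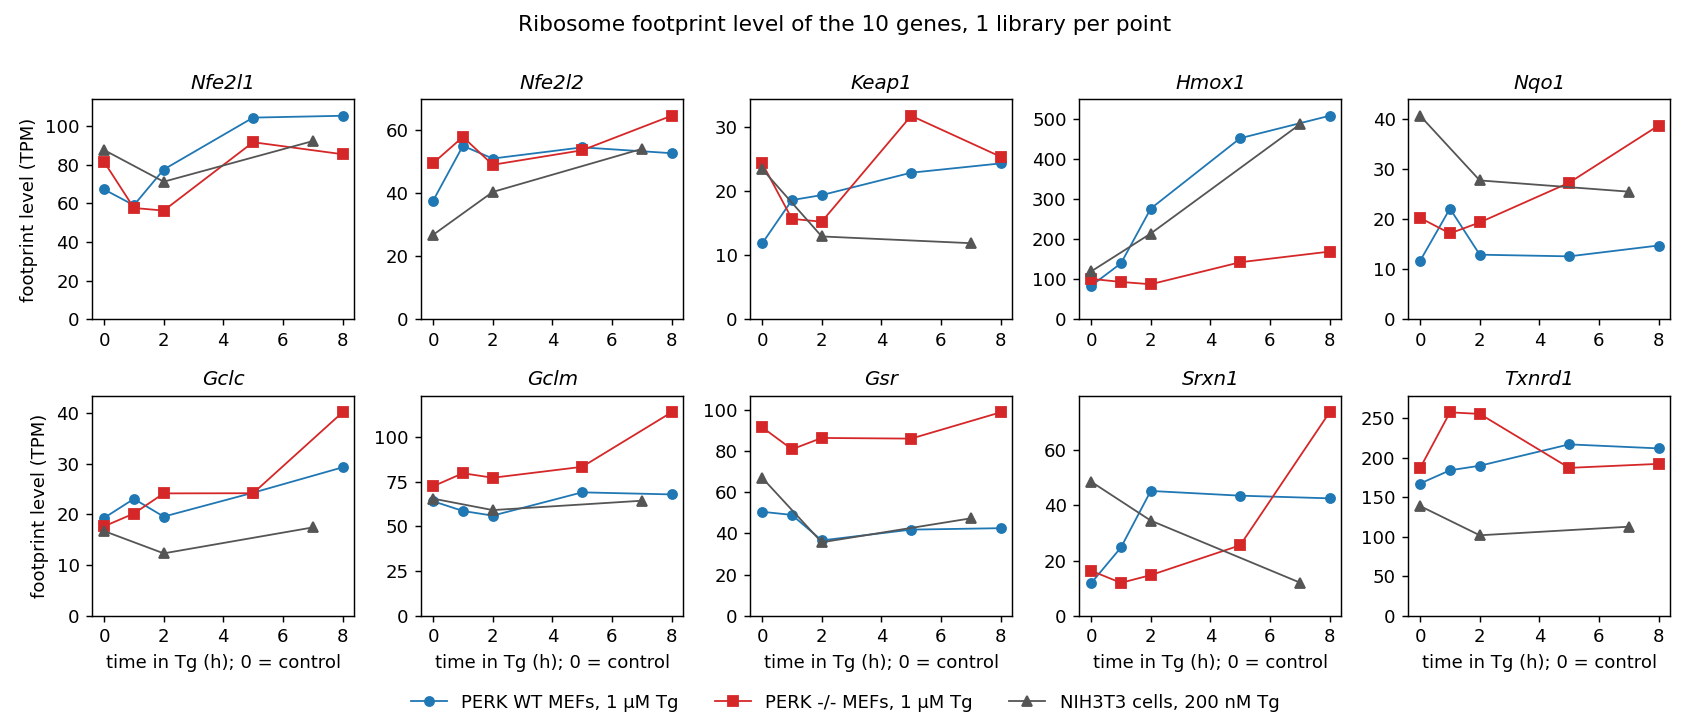
Footprint level (TPM, linear axis from 0) of each of the 10 genes against time in Tg, with the control at 0 h, for PERK WT MEFs (circles), PERK -/- MEFs (squares) and NIH3T3 cells (triangles). Each point is 1 library with no error bar, and Hmox1 climbed to 507 TPM in WT at 8 h against 169 in PERK -/- MEFs, while Srxn1 reached 73.8 TPM in PERK -/- MEFs at 8 h.

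In PERK WT MEFs, Srxn1, Hmox1 and, at the last time, Keap1 rose, and none of the 10 genes fell. At 1 h the only gene to rise was Srxn1 (1 of 10, against 4.33% of expressed genes, with 2.29% falling). At 2 h Srxn1 and Hmox1 had risen, 2 of 10 against 5.66% up and 4.01% down. The same 2 genes were up at 5 h, against 5.86% up and 3.55% down. At 8 h Keap1 joined them, so 3 of 10 were up against 6.45% up and 3.87% down. The median log2 change in TPM over the 10 genes was 0.40, 0.19, 0.45 and 0.54 at the 4 times, beside medians over all expressed genes of at most 0.01.

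In PERK -/- MEFs, none of the 10 genes moved by 2-fold until 8 h, when Srxn1 and Gclc rose. At 1 h 0.719% of expressed genes had risen and 3.38% had fallen, and at 2 h 0.623% had risen and 5.78% had fallen. At 5 h the shares were 3.26% up and 4.77% down. At 8 h 2 of the 10 genes were up, against 3.28% up and 2.73% down. The median over the 10 genes was −0.15, −0.07, 0.29 and 0.52 at the 4 times, and that over all expressed genes was −0.06, −0.11, 0.00 and 0.04. At 8 h all 10 genes had a log2 change in TPM above 0, from 0.04 (Txnrd1) to 2.17 (Srxn1), while 53.7% of expressed genes did. The smallest of these depended on the scaling. Keap1 and Txnrd1 were both at −0.04 with TMM factors and −0.03 with DESeq2 factors.

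In NIH3T3 cells, none of the 10 genes moved by 2-fold at 2 h, where 5.76% of expressed genes rose and 3.76% fell. At 7 h Hmox1 and Nfe2l2 rose (7.01% of expressed genes up) and Srxn1 fell (8.06% down). The median over the 10 genes was −0.44 at 2 h and −0.16 at 7 h, beside −0.13 and 0.00 over all expressed genes. The plot of log2 changes shows the same gene moving in unlike ways in the 3 settings.

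**Figure D2:**
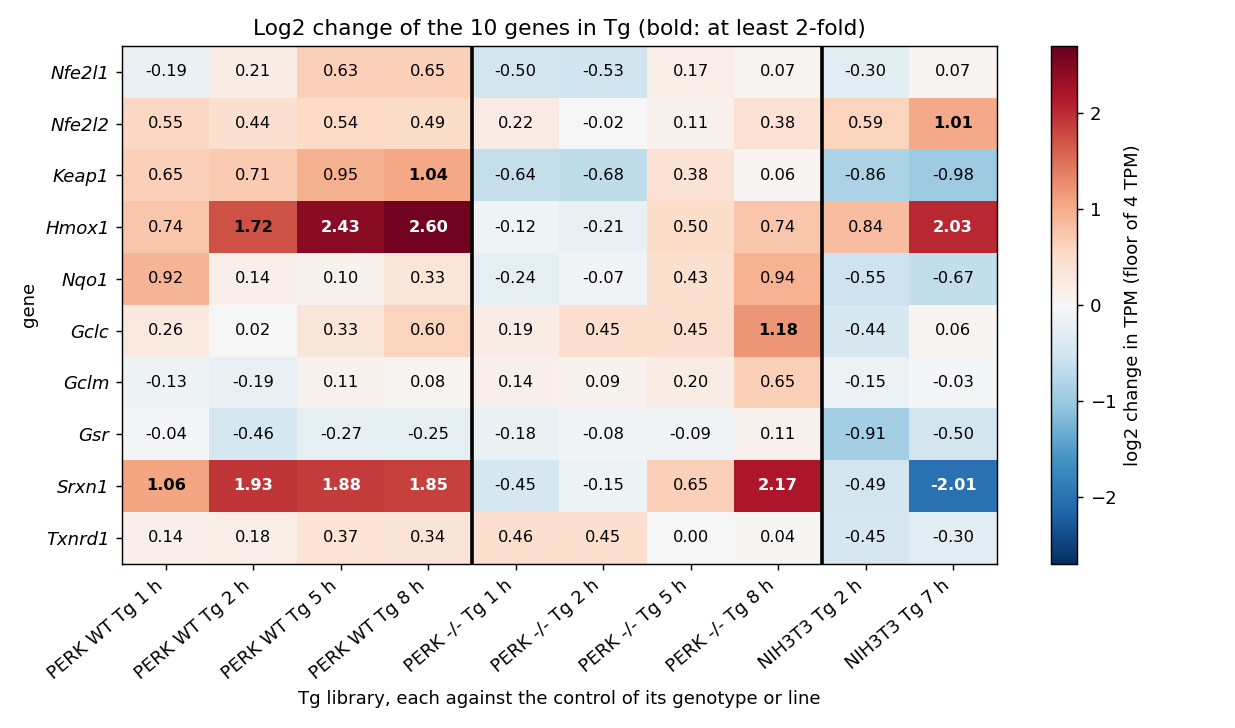
Log2 change in TPM (numbers and color, after the floor of 4 TPM) of each of the 10 genes (rows) in each Tg library against the control of its genotype or line (columns), with changes of at least 2-fold in bold. Of the 100 values 13 are in bold, 12 of them increases, and the 1 decrease is Srxn1 in NIH3T3 cells at 7 h (−2.01).

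Nfe2l2 (chr2:75675513-75704663) had 37.5 TPM in the PERK WT control and 54.8, 50.8, 54.4 and 52.5 TPM at 1, 2, 5 and 8 h of Tg. The PERK -/- libraries had 49.4 TPM in the control and 57.7, 48.8, 53.4 and 64.4 TPM. All 4 WT Tg libraries lay above their control, by between 1.36-fold and 1.46-fold, and the step was already there at 1 h. In NIH3T3 cells footprints on Nfe2l2 went from 26.7 TPM to 40.3 at 2 h and 53.9 at 7 h, which was 2.02-fold, from the lowest starting level of the 3. Their log2 change of counts at 7 h was 1.01 (0.85 to 1.18), and 691 expressed genes had a larger TPM change. In no library were footprints on Nfe2l2 clearly under the control, as the interval of its counts lay above 0 in 8 of the 10 comparisons and below 0 in none.

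Nfe2l1 (chr11:96817414-96829968), the gene of the ER-bound factor NRF1, had 67.2 TPM in the PERK WT control and 59.0, 77.5, 104 and 105 TPM over time. It stood 1.57-fold above its control at 8 h (log2 change of counts 0.57, 0.48 to 0.65). Without PERK it went from 81.5 TPM to 57.6 and 56.3 TPM in the first 2 Tg libraries, then to 91.7 and 85.4 TPM in the last 2. The early libraries were thus lower than the control, at 0.71-fold and 0.69-fold, and the late ones were near it. In NIH3T3 cells the values were 87.6, 71.2 and 92.2 TPM, so the 7 h level was 1.05-fold the control.

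Keap1 (chr9:21229730-21239332) had 11.8 TPM in the PERK WT control and 18.6, 19.4, 22.9 and 24.3 TPM at 1, 2, 5 and 8 h. It was higher at each successive time and crossed 2-fold only at 8 h (2.06-fold, log2 change of counts 1.04, 0.83 to 1.26). That WT level at 8 h was the level at which the PERK -/- control began. The order was different in PERK -/- MEFs, with 24.3 TPM in the control and 15.7, 15.2, 31.7 and 25.4 after 1, 2, 5 and 8 h of Tg. Between 2 h and 5 h Keap1 rose 2.09-fold (log2 ratio of counts 1.02, 0.83 to 1.20). In NIH3T3 cells it went from 23.4 TPM to 12.9 at 2 h and 11.9 at 7 h, which was 0.51-fold and just short of a 2-fold fall. Keap1 is rich in GC, with 60.8% in its coding sequence against a median of 52.8% over expressed genes. Once a trend of the changes on GC content was taken out, its WT change at 8 h was 0.64 in place of 1.04 on the log2 scale. In PERK -/- MEFs its changes against the control were then −0.33, −0.24 and 0.46 at 1, 2 and 5 h. They stood in place of −0.64, −0.68 and 0.38, so the step between 2 h and 5 h was smaller. The part of GC content in these results was not tested.

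Hmox1 (chr8:75093618-75100593) made the largest change of the 10 genes. The WT libraries had 83.5 TPM in the control and 139, 276, 451 and 507 after 1, 2, 5 and 8 h of Tg. In counts this was 843 in the control and 4793 at 8 h, libraries of about the same depth. The level was higher at each time than at the one before, and the 8 h library stood 6.07-fold above the control (log2 change of counts 2.60, 2.498 to 2.71). Only 35 of the 10432 expressed genes had a larger change there. The PERK -/- levels were 101 TPM in the control and 93.0, 87.3, 142 and 169 after 1, 2, 5 and 8 h of Tg. No library of this genotype reached 2-fold, and the 8 h library was at 1.67-fold (0.73, 0.59 to 0.88). In NIH3T3 cells Hmox1 went from 119 TPM to 214 at 2 h and 485 at 7 h, or 4.07-fold (2.03, 1.93 to 2.13). The late WT MEFs and the late NIH3T3 cells thus lay close in level, and the late PERK -/- MEFs well under it.

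Srxn1 (chr2:152105524-152111376), the sulfiredoxin gene with an ARE core just after its start, was the only one of the 10 past 2-fold at 1 h. Its WT levels were 11.8 TPM in the control and 24.8, 45.3, 43.6 and 42.6 TPM at 1, 2, 5 and 8 h. The rise was 2.09-fold at 1 h and 3.82-fold at 2 h, and the last 3 libraries were level with each other. The 1 h value rests on 37 counts (log2 change of counts 1.079, 0.44 to 1.70) and fell short of 2-fold with TMM factors (0.98). Its interval overlapped those of Nqo1 (0.47 to 1.39) and Hmox1 (0.58 to 0.92) there, so which gene moved first is not settled. The PERK -/- libraries held 16.3 TPM in the control and 12.0, 14.76, 25.6 and 73.8 after 1, 2, 5 and 8 h of Tg. The first 2 Tg libraries were at or under the control, and the 8 h library stood 4.51-fold above it (log2 change of counts 2.16, 1.70 to 2.66). Just 4 of the 10432 expressed genes had a larger change at that point. Between 5 h and 8 h alone the level rose 2.88-fold (1.48, 1.12 to 1.86).

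In NIH3T3 cells Srxn1 moved the other way. It had 48.6 TPM in the control and 34.5 and 12.1 TPM after 2 and 7 h, where it had fallen to 0.25-fold (log2 change of counts −2.01, −2.60 to −1.47). The counts behind these levels were 241, 43 and 31. Its counts were low in all 13 libraries, between 31 and 241, so its intervals are wide. The coding sequence of Srxn1 is short (465 nt) and has 66.5% GC, the highest of the 10 genes. With the GC trend taken out, the WT log2 change at 8 h was 1.25 in place of 1.85, still past 2-fold, and at 1 h it was 0.83 in place of 1.06.

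Txnrd1 (chr10:82833951-82897724) was the most abundant of the 10 genes in every control and never moved by 2-fold. The WT levels were 167 TPM in the control and 184, 189.7, 217 and 212 TPM. Its PERK -/- levels were 187 TPM in the control and 257, 255, 187 and 192 after 1, 2, 5 and 8 h of Tg. The timing was opposite, with the WT libraries highest late and the PERK -/- libraries highest early. The PERK -/- change at 1 h was 1.38-fold (log2 change of counts 0.50, 0.43 to 0.58), and only 676 expressed genes had a larger one. In NIH3T3 cells the values were 139, 102 and 113 TPM, both Tg libraries being under the control.

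Of the 3 glutathione enzymes Gclc, Gclm and Gsr, only Gclc rose or fell by 2-fold, and only in PERK -/- MEFs at 8 h. Gclc (chr9:77754535-77794489) had 19.3 TPM in the WT control and 23.1, 19.6, 24.3 and 29.3 TPM over time, ending at 1.52-fold. Without PERK it had 17.6 TPM in the control and 20.2, 24.1, 24.2 and 40.1 after 1, 2, 5 and 8 h of Tg, a rise of 2.27-fold (log2 change of counts 1.18, 0.96 to 1.40). The change between 5 h and 8 h was 1.66-fold. The NIH3T3 libraries had 16.7, 12.3 and 17.4 TPM, so the late library was back at the control level.

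Gclm (chr3:122245487-122267215), the partner subunit, had 64.0 TPM in the WT control and 58.6, 56.0, 69.0 and 67.8 TPM in Tg. The PERK -/- levels were 72.3 TPM in the control and 79.6, 77.1, 83.2 and 114 TPM. Only the last of these stood clear of the others, at 1.57-fold (log2 change of counts 0.64, 0.46 to 0.83). The NIH3T3 levels were 65.4, 59.1 and 64.3 TPM. At 8 h in PERK -/- MEFs both subunits of the ligase were thus at their highest level in any MEF library.

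Gsr (chr8:33653238-33698162) tended downward. It had 50.5 TPM in the PERK WT control and 48.9, 36.6, 41.8 and 42.5 TPM in Tg, and all 4 Tg libraries were under the control. Its PERK -/- levels stayed within a narrow band, with 91.4 TPM in the control and 80.8, 86.3, 85.9 and 98.7 TPM in Tg. Every PERK -/- library therefore lay above every WT library. The NIH3T3 levels were 67.0 TPM in the control, 35.7 at 2 h (0.53-fold, log2 change of counts −0.79, −1.03 to −0.55) and 47.3 at 7 h. The interval of its counts lay below 0 in 6 of the 10 comparisons and above 0 in none.

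Nqo1 (chr8:107388225-107403205), a classical NRF2 target, had 11.7 TPM in the PERK WT control and 22.1, 12.9, 12.5 and 14.7 TPM in Tg. The 1 h library alone stood apart, at 1.89-fold on 64 counts (log2 change of counts 0.93, 0.47 to 1.39). Those of PERK -/- MEFs had 20.2 TPM in the control and 17.1, 19.3, 27.2 and 38.6 after 1, 2, 5 and 8 h of Tg. That last level was 1.91-fold the control (0.93, 0.59 to 1.27), and 437 expressed genes had a larger change. In NIH3T3 cells it went from 40.6 TPM to 27.7 and 25.4 TPM, the 7 h level being 0.63-fold the control.

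At the latest time of each line, the enzymes therefore did not move as 1 block. In PERK WT MEFs Hmox1 stood 6.07-fold above its control, while Nqo1, Gclm and Gsr lay between 0.84-fold and 1.26-fold. The order in PERK -/- MEFs was Srxn1, Gclc, Nqo1, Hmox1 and Gclm, from 4.51-fold to 1.57-fold. The intervals of Hmox1 (0.59 to 0.88), Nqo1 (0.59 to 1.27) and Gclm (0.46 to 0.83) overlapped there. That of Gclc (0.96 to 1.40) also overlapped that of Nqo1. The order among Hmox1, Nqo1 and Gclm, and that of Gclc and Nqo1, is thus not beyond counting error. In NIH3T3 cells Hmox1 was the only enzyme to rise.

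**Figure D3:**
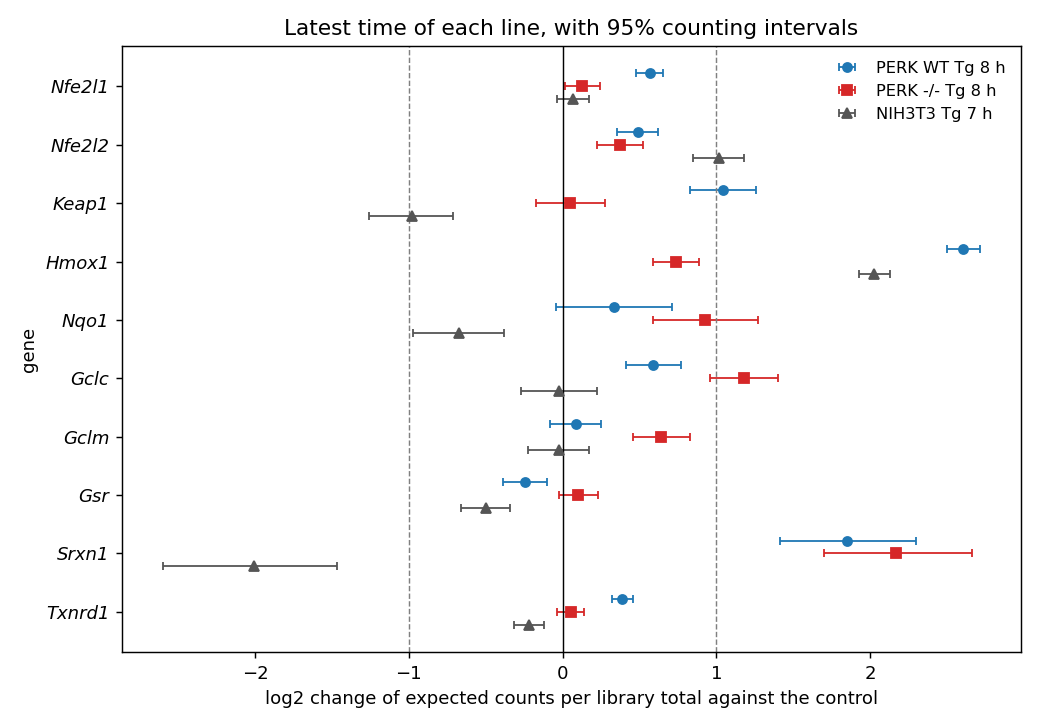
Log2 change of expected counts per library total against the control (horizontal axis) for the 10 genes at 8 h in PERK WT MEFs (circles), 8 h in PERK -/- MEFs (squares) and 7 h in NIH3T3 cells (triangles). Bars are exact 95% intervals for counting error only and dashed lines mark 2-fold, and Hmox1 is far to the right in WT MEFs (2.60) and NIH3T3 cells (2.03) but not in PERK -/- MEFs (0.73).

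The 2 genotypes were compared by subtracting the PERK -/- log2 change of counts from the WT one at the same time. At 1 h the 95% counting interval of this difference lay above 0 for 5 of the 10 genes, below 0 for 1 and held 0 for 4, while it lay above 0 for 33.6% and below 0 for 21.8% of expressed genes with counts in all 4 libraries. At 2 h the numbers among the 10 were 5, 4 and 1 (36.3% above and 22.2% below 0 among expressed genes), and at 5 h they were 6, 1 and 3 (33.3% and 26.4%). At 8 h they were 4, 4 and 2 (30.9% and 27.7%). An interval clear of 0 was thus common among expressed genes at every time, and these numbers do not set the 10 genes apart. The interval for Txnrd1 lay below 0 at 1 and 2 h and above 0 at 5 and 8 h, while the difference for Hmox1 was in favor of WT at all 4 times.

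For Hmox1 the difference was 0.84 (0.61 to 1.07), 1.86 (1.65 to 2.07), 1.901 (1.71 to 2.09) and 1.87 (1.69 to 2.05) after 1, 2, 5 and 8 h. At 8 h just 112 expressed genes had a larger difference in TPM. For Srxn1 it was 1.499 (0.67 to 2.33), 2.01 (1.26 to 2.77) and 1.20 (0.50 to 1.89) at 1, 2 and 5 h, and −0.32 (−0.95 to 0.31) after 8 h, where the interval held 0. The Srxn1 change was thus larger in WT MEFs up to 5 h. At 8 h the value depended on the scaling, being −0.88 with the GC trend taken out, against −0.33 in TPM. For Keap1 the difference was 1.27 (0.90 to 1.65) at 1 h and 1.32 (0.92 to 1.72) at 2 h, in which a fall short of 2-fold in PERK -/- MEFs met an increase in WT. It was 0.53 (0.21 to 0.85) at 5 h and 0.99 (0.69 to 1.29) at 8 h. With the GC trend taken out the Keap1 difference was 0.82, 0.68, 0.15 and 0.63 at 1, 2, 5 and 8 h. Each of these values lay below the counting interval of its time.

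At 8 h the difference lay in favor of PERK -/- MEFs for the 4 genes Nqo1, Gclc, Gclm and Gsr. It was −0.59 (−1.08 to −0.10) for Nqo1, −0.59 (−0.87 to −0.31) for Gclc, −0.56 (−0.80 to −0.32) for Gclm and −0.35 (−0.54 to −0.16) for Gsr. These are 3 genes of glutathione synthesis and recycling and the quinone reductase. At the same time it was 1.87 for Hmox1, 0.99 for Keap1, 0.44 (0.30 to 0.58) for Nfe2l1 and 0.33 (0.22 to 0.45) for Txnrd1, in favor of WT. For Nfe2l2 it was 0.11 (−0.08 to 0.31), an interval that held 0, while with the GC trend taken out the value was 0.30, against 0.10 in TPM. The sign of the difference was the same under every scaling tried for all 10 genes at 5 h and at 8 h, for 9 of 10 at 2 h and for 7 of 10 at 1 h. Those that flipped were Nqo1 at 2 h and Nfe2l1, Gclc and Gsr at 1 h.

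**Figure D4:**
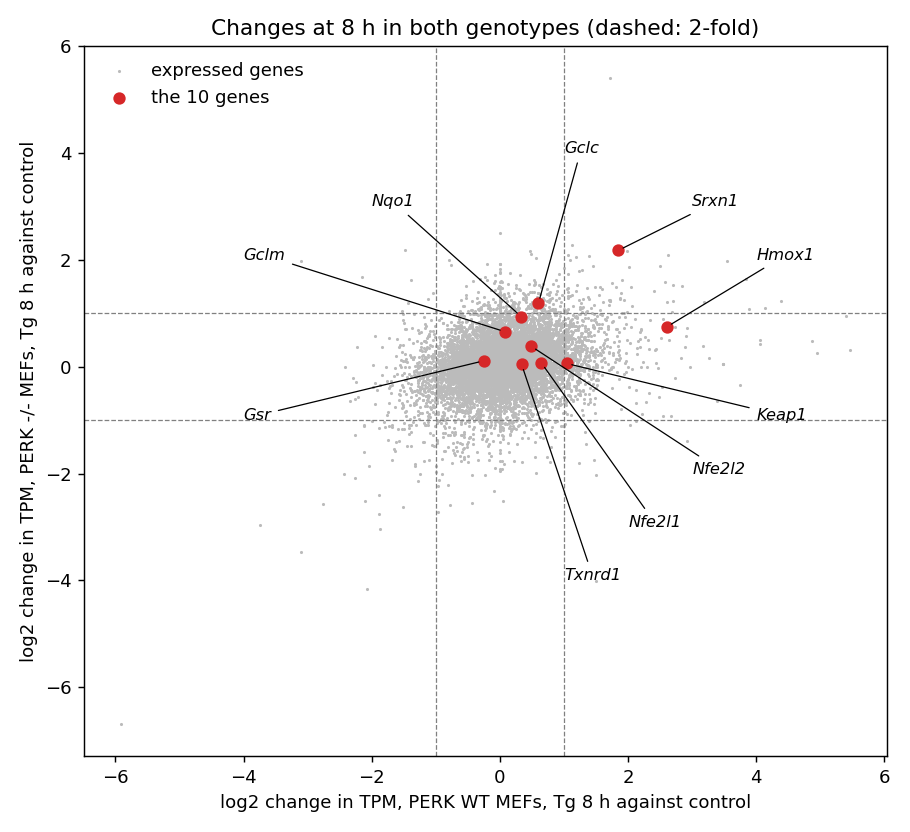
Log2 change in TPM at 8 h of Tg against the control in PERK WT MEFs (horizontal axis) and PERK -/- MEFs (vertical axis) for the 10432 expressed genes (grey) and the 10 genes (red, named). Dashed lines mark 2-fold in either direction, and Srxn1 (1.85 in WT, 2.17 in PERK -/-) is the only one of the 10 past 2-fold in both genotypes.

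Fibroblast markers shifted in the same libraries. At 2 h in PERK -/- MEFs, where Keap1 and Nfe2l1 were under their controls, 6 of 12 fibroblast markers had fallen, with a summed level of 5219 TPM against 8172 in the control. In the other PERK -/- Tg libraries the sum was between 5927 and 6657 TPM, and in the WT libraries between 6244 and 7045 TPM. In NIH3T3 cells, where Srxn1 fell at 7 h, 4 of 11 expressed markers had fallen and the sum was 5478 TPM against 9251. Endothelial markers summed to at most 5.14 TPM in any library, with 2 to 4 of the 5 at 0. Epithelial markers summed to between 19.4 and 44.1 TPM in MEFs and at most 15.9 in NIH3T3 cells, and blood cell markers to at most 11.4 TPM in MEFs but 53.9, 59.8 and 20.3 TPM in NIH3T3 cells. The part of these shifts in the results for the 10 genes was not tested.

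Of 16 partners and regulators of NRF2 and NRF1, 13 were expressed. In PERK WT MEFs 2 were up and 1 down at 8 h, in PERK -/- MEFs 1 up and none down, and in NIH3T3 cells at 7 h 5 up and none down. The shares of all expressed genes up in these libraries were 6.45%, 3.28% and 7.01%, and the shares down 3.87%, 2.73% and 8.06%, which also hold for the lists that follow. Sqstm1 encodes p62, which draws KEAP1 into autophagy. It had 209 TPM in the WT control and 315, 567, 865 and 961 TPM over time, or 4.60-fold at 8 h. In PERK -/- MEFs it went from 319 TPM to 196, 198, 349.97 and 516 TPM, and in NIH3T3 cells from 191 to 356 and 846 TPM. Footprints on Sqstm1 therefore rose in WT MEFs and NIH3T3 cells, and in PERK -/- MEFs reached 1.62-fold at 8 h.

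Cul3, the scaffold of the ligase that ubiquitinates NRF2, had 84.6 TPM in the PERK WT control and 50.3, 38.3, 39.3 and 39.1 TPM in Tg. It had fallen from 2 h on, to 0.46-fold at 8 h. The PERK -/- levels stood at 80.7 TPM in the control and 92.3, 109, 77.8 and 79.2 TPM in Tg, and in NIH3T3 cells at 38.8, 23.4 and 23.1 TPM. In WT MEFs at 8 h, footprints on Keap1 and Cul3 thus moved in opposite directions. Syvn1 encodes HRD1, an ER ubiquitin ligase reported to act on NRF1 and NRF2. It rose 6.09-fold in WT MEFs at 8 h (26.6 to 162 TPM), 2.30-fold in PERK -/- MEFs (50.5 to 116 TPM) and 3.17-fold in NIH3T3 cells at 7 h (62.5 to 198 TPM). It was the only regulator up at the latest time in all 3.

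The small MAF genes, whose proteins pair with NRF2 and NRF1, rose in NIH3T3 cells. Maff went from 21.2 to 45.0 and 89.9 TPM (4.23-fold at 7 h), Mafk from 41.8 to 86.8 and 122 TPM (2.92-fold) and Mafg from 28.2 to 30.3 and 63.0 TPM (2.24-fold). In PERK WT MEFs no MAF gene of these 3 reached 2-fold, their log2 changes in TPM lying between −0.44 and 0.77. Maff fell in PERK -/- MEFs at 5 h, from 21.3 to 8.47 TPM (log2 change −1.33). The counts behind it were 72 and 33.

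Of 28 other genes known as NRF2 targets, 22 were expressed in MEFs and 23 in NIH3T3 cells. In PERK WT MEFs 1 was up and none down at each time, Gstm1 at 1 h and Slc7a11 after that, so the share of 1 in 22 was near or under that of all expressed genes (4.33% to 6.45% up). Without PERK, 1 was down at 1 h and at 2 h (Gsta4, a glutathione transferase, 21.4 TPM in the control), none moved at 5 h and 3 were up at 8 h, when the median log2 change was 0.42 beside 0.04 over all expressed genes. The 3 were Slc7a11 (34 counts in the control and 93 in Tg, with the control under the floor of 4 TPM), Gstm1 and Abcb6. In NIH3T3 cells at 7 h 2 were up (Slc7a11 and Gstm3, the latter with 0 counts in the control and 51 in Tg) and 3 down (Gstm1, Mgst1 and Pir), with a median of −0.15. Gsta4, Gstm3, Mgst1 and Pir had under 100 counts in at least 1 of the libraries compared and are named after their values were seen, as are Ggct and Blvrb where they occur. The median of this list at 8 h was 0.28 in WT MEFs beside 0.01.

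Slc7a11 encodes the transporter that brings in cystine for glutathione synthesis. It had 2.51 TPM in the PERK WT control and 3.13, 19.98, 35.8 and 36.4 TPM in Tg. The 8 h level was 9.09 times the floor of 4 TPM, and the counts behind it were 38 in the control and 614. PERK -/- MEFs had 3.71 TPM in the control and 0.77, 1.18, 5.54 and 9.24 after 1, 2, 5 and 8 h of Tg. Those of NIH3T3 cells were 18.3, 24.2 and 65.0 TPM. Its promoter window held the C/EBP-ATF element on both strands. The 13 windows searched for 7 of the 10 genes did not, but only 3.97% of all windows did, so this does not set the 10 genes apart. Slc7a11 was the only gene of the other lists whose promoter was searched, and the part of the element in its change was not tested. Below is 1 of the 2 stretches (chr3:50443662-50443689, minus strand, direction of the gene), with the element in capitals.
Slc7a11: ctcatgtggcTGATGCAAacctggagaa
The first base of this element was 66 bases before a start site that lies within Slc7a11 (chr3:50364936-50499087) and not at its outer end. Gstm1, a glutathione transferase with close paralogs among which reads may be split, went from 42.0 to 122 TPM in PERK -/- MEFs at 8 h and from 81.0 to 36.1 TPM in NIH3T3 cells at 7 h. Abcb6, a porphyrin transporter, went from 7.38 to 15.5 TPM in PERK -/- MEFs at 8 h.

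In the glutathione list, 15 of 17 genes were expressed, and at the latest time 2 were up and 2 down in PERK WT MEFs, 3 up and none down in PERK -/- MEFs, and 3 up and 1 down in NIH3T3 cells. Chac1, which degrades glutathione, had 10.6 TPM in the WT control and 72.2, 231, 184 and 186 TPM in Tg. Its PERK -/- levels were 15.3, 12.1, 7.75, 3.86 and 32.9 TPM, so it was lowest at 5 h and rose 2.14-fold over the control at 8 h. In NIH3T3 cells it rose from 101 to 303 and 317 TPM. Slc3a2, the partner chain of the cystine transporter and of other amino acid carriers, rose 6.18-fold in WT MEFs at 8 h (255 to 1572 TPM), 4.26-fold in PERK -/- MEFs (263 to 1123 TPM) and 2.84-fold in NIH3T3 cells at 7 h (432 to 1226 TPM). Gpx8, a peroxidase of the ER, fell in WT MEFs from 182 to 68.8 TPM at 8 h, while in PERK -/- MEFs it stood at 179.6 and 209 TPM. The other gene down in WT MEFs at 8 h was Ggct (10.4 to 4.89 TPM), an enzyme of the same glutathione breakdown as Chac1. Gpx7, a relative of Gpx8, went from 30.03 to 62.4 TPM in PERK -/- MEFs at 8 h and from 28.5 to 12.2 TPM in NIH3T3 cells at 7 h. Gpx1, the cytosolic glutathione peroxidase, rose 2.23-fold in NIH3T3 cells at 7 h (127 to 282 TPM).

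Likeness of pattern was measured as Pearson's r of log2 TPM over the 13 libraries, after the mean of each genotype or line was subtracted, among 6302 genes with a mean of at least 10 TPM in both tables. It is a description only, since the libraries differ in depth and share their treatment. Hmox1 was most like Mid1ip1 (r = 0.98), Ndrg1 (0.98) and Sqstm1 (0.97), Srxn1 most like Abhd4 (0.94), Tssc1 (0.94) and Dpm2 (0.92), and Keap1 most like Cpne1 (0.98), Triobp (0.97) and Gtse1 (0.97). Gclc was most like Wipi1 (0.96), Hdlbp (0.91) and Ptrhd1 (0.90), and Nfe2l2 most like Ncoa4 (0.93), Zfp57 (0.92) and Ahnak (0.91). Among the 10 genes themselves, the closest pair was Gclc with Gclm (r = 0.87), followed by Nfe2l2 with Hmox1 (0.76) and Keap1 with Srxn1 (0.74). Srxn1 and Hmox1, the 2 genes with the most rises, had an r of 0.34.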

How the data were processed

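Ribosome footprints were sequenced from 13 libraries, 1 per condition. Per the labels and the study's methods, the authors used reads of 22 to 34 nt after polyA removal, discarded those matching rRNA or tRNA (STAR) and passed Bowtie2 alignments to RSEM. The reference was the set of RefSeq coding sequences (mm10), from which 30 nt were cut at both ends and transcripts shorter than 100 nt dropped (tool versions are not given in the sources used here). The expected counts per gene are unscaled, as deposited. The deposited TPM values were set by RSEM within each library. RSEM shares reads among near-identical copies, so values of paralogs and of genes with pseudogenes (Gstm1, Ftl1, Fth1) are uncertain.

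The 10 genes and all gene lists were chosen with earlier results of these data known. Of the other lists, genes past 2-fold are named where both libraries held 100 expected counts or more, and for genes of the 10 that changed 2-fold, the 3 of most similar pattern. The comparisons, thresholds and intervals (95% confidence) are as given with the results. The 2-fold calls and the exact interval were tried on Poisson counts simulated from PERK WT MEFs at 8 h and their control. Such counts hold no spread between replicates, and the interval of the difference between genotypes was not simulated. The TMM and DESeq2 factors came from edgeR 4.0.16 and DESeq2 1.42.0 (R 4.3.3), and the rest from scipy 1.17.1, statsmodels 0.14.6, pandas 2.3.3, numpy 2.4.6 and matplotlib 3.10.9 (Python 3.11.15). GC content came from coding sequences of a GENCODE annotation of GRCm38, found for 96.1% of expressed MEF genes. As alternatives, values were recomputed with a pseudocount of 1 TPM, a floor of 1 TPM, a mean TPM of at least 5, no filter, 1.5-fold and 3-fold thresholds, counts per library total, TMM and DESeq2 factors. Taking out a lowess trend on GC content (fraction 0.3) and leaving out the 2 h libraries or the PERK -/- 8 h library were added after seeing the data.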

Additional observations from a re-analysis of the deposited data

Results flagged for a closer look

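For some genes every Tg library of PERK WT MEFs moved one way and both of NIH3T3 cells the other. The doses and late times differed between the lines, and the difference was not tested. It is given as the gap in log2 change between the nearest libraries, and was 1.56 for Srxn1, 1.51 for Keap1, 0.66 for Nqo1 and 0.44 for Txnrd1, all higher in WT MEFs. Between PERK -/- MEFs and NIH3T3 cells this was so for Txnrd1 (0.30) and Gclm (0.12), again higher in the MEFs. The Gclm change in NIH3T3 cells turned slightly positive under other scalings. The Txnrd1 change in PERK -/- MEFs turned slightly negative with TMM factors at 5 h (−0.004) and 8 h (−0.04). The opposite direction of both genes between PERK -/- MEFs and NIH3T3 cells thus rests on the scaling. For Nqo1, the counting interval in WT MEFs held 0 at 2 h (−0.53 to 0.78), 5 h (−0.39 to 0.58) and 8 h (−0.04 to 0.71). Its direction in WT MEFs was therefore beyond counting error only at 1 h. The interval of Srxn1 in NIH3T3 cells at 2 h also held 0 (−0.88 to 0.10).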

How the results depend on the processing

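No paired analysis was possible because the result comes from no test, and no replicate could be left out with 1 library per condition. All 10 genes lay above 5 TPM in every library. The floor of 1 TPM, the mean TPM of at least 5 and the lack of a filter therefore could not change their values. Of the 13 changes past 2-fold, all kept their sign in the 104 alternative values computed for them, those settings included. Of these values 97 stayed past 2-fold. Those that did not were Srxn1 in WT MEFs at 1 h (0.98 with TMM factors, 0.83 without the GC trend), Keap1 in WT MEFs at 8 h (0.98 with the pseudocount, 0.94 with TMM, 0.93 with DESeq2 factors, 0.64 without the GC trend) and Nfe2l2 in NIH3T3 cells at 7 h (0.99 with the pseudocount). Hmox1 in NIH3T3 cells at 2 h passed 2-fold without the GC trend (1.05). With the pseudocount, 1 gene rose in NIH3T3 cells (1 change) in place of 2. At 1.5-fold, 6 genes were up in WT MEFs (16 changes in place of 8) and 5 in PERK -/- MEFs (6 changes in place of 2), where 1 was down (2 changes in place of 0). In NIH3T3 cells there were then 4 changes up in place of 2, and 4 genes down (5 changes in place of 1). At 3-fold, 1 gene was up (1 change) in PERK -/- MEFs and 1 (1 change) in NIH3T3 cells. Both calls of PERK -/- MEFs were made in the 8 h library alone and rest on it. Leaving that library out thus had to give 0 genes and 0 changes up in that genotype. Over the 4 scalings, all 52 changes of at least 0.4 (log2) kept their sign, and 84 of 100 in all. The median of the 10 genes in PERK -/- MEFs at 2 h, −0.07 in TPM, was 0.15 with TMM factors, where the median of all genes moved from −0.11 to 0.03. The counts were lowest for Nqo1 (26 in WT MEFs at 2 h) and Srxn1 (31 in NIH3T3 cells at 7 h), and intervals cover counting error only.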

Other observations

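The other antioxidant systems were described by the same counts. The shares of expressed genes up at the latest time were 6.45% in PERK WT MEFs, 3.28% in PERK -/- MEFs and 7.01% in NIH3T3 cells. Of 12 expressed genes of the thioredoxin and peroxiredoxin systems, 1 was up at each time in PERK WT MEFs, none in PERK -/- MEFs, and 1 at 2 h and 2 at 7 h in NIH3T3 cells. Each of these included Txnip, which encodes an inhibitor of thioredoxin. It went from 3.22 to 30.4 TPM in WT MEFs at 8 h, from 9.46 to 15.5 TPM in PERK -/- MEFs and from 95.9 to 680.2 and 426 TPM in NIH3T3 cells. Txnrd2, the mitochondrial thioredoxin reductase, went from 11.3 to 23.7 TPM in NIH3T3 cells at 7 h. Of the 5 superoxide dismutase and catalase genes, 1 was up at each time in WT MEFs. That gene was Ccs, the copper chaperone of superoxide dismutase 1, with 16.6 TPM in the control and 37.9, 34.7, 37.8 and 36.8 TPM in Tg, while in PERK -/- MEFs it had 26.5 TPM in the control and 33.2 at 8 h. Sod3, the secreted dismutase, was down in PERK -/- MEFs at 1 h (8.25 to 2.31 TPM) and in NIH3T3 cells at 7 h (54.4 to 26.3 TPM). In PERK -/- MEFs the Sod3 call rests on 40 counts in the control and 17 at 1 h, a level under the floor of 4 TPM.

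Of 7 expressed genes of heme and iron, 2 were up and 1 down in WT MEFs at 8 h, none in PERK -/- MEFs at 8 h and none in NIH3T3 cells. Ftl1, the ferritin light chain, went from 81.7 to 280.4 TPM in WT MEFs at 8 h and from 144 to 198 TPM in PERK -/- MEFs. Blvrb, a biliverdin reductase, was the other gene up there, from 11.8 to 28.0 TPM. Tfrc, the transferrin receptor that takes up iron, fell from 351 to 123 TPM in WT MEFs and was at 328 and 253 TPM in PERK -/- MEFs. Fth1, the ferritin heavy chain, went from 96.9 to 227 TPM in PERK -/- MEFs at 2 h and from 68.8 to 143 TPM in WT MEFs at 2 h.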
